A study of Caenorhabditis elegans with 2 samples.

Results

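The autosomal tRNA genes of Caenorhabditis elegans were examined in a ChIP-seq experiment on the GATA-type transcription factor MED-1. All genes of biotype tRNA outside the X chromosome and the mitochondrial genome were taken from the Ensembl annotation of the assembly WBcel235. This gave 336 of the 612 nuclear tRNA genes, among 46926 annotated genes of all kinds. Members were chosen by annotation alone, with earlier results of these data known. The other 276 nuclear tRNA genes lie on X. RefSeq gave every one of the 612 genes the same span and strand as a tRNA, and named the amino acid of all but 2 of the 336. By set rules an anticodon was read from the gene sequence in 325 of the 336 members. The other 11 gave none, and among them the 2 with no named amino acid were not scanned.

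The series has 1 group, whole hermaphrodites of strain OP391 collected as mid-stage embryos, with 2 biological replicates. The genotype of both is unc-119(ed3) III with the insertion wgIs391, which carries med-1 with TY1, EGFP and FLAG at its C-terminus and a wild-type unc-119(+) gene. Sonicated chromatin was precipitated with an antibody to GFP, while a separate antibody field names med-1, the tagged protein. No group without the tagged protein was analysed here, and a control experiment that the labels name was used only by the authors in making the peaks, so a difference between MED-1 and other precipitated chromatin cannot be told from these lists. The tag sits on a transgene copy, the labels do not name its promoter, and whole embryos mix all cell types.

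A tRNA gene is transcribed by RNA polymerase III from a promoter inside the gene. The A box and the B box, which become the D arm and the T arm of the tRNA, are bound by the factor TFIIIC, which brings TFIIIB to the DNA just upstream, and a run of T downstream ends transcription. Identical copies of a tRNA gene are usually scattered over the genome, so the flanking DNA is what tells copies apart. MED-1 is known for its part in specifying the mesendoderm of the early embryo, through sites unrelated to the A and B boxes.

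Sequences of 6 genes with strong peaks are shown from the RefSeq genome WBcel235, the same assembly as ce11, on the strand of the gene and 5′ to 3′. Capitals mark the match to the A box, near the start, and to the B box, near the end. The first is an isoleucine gene with the anticodon TAT at chrV:12002176-12002260 on the plus strand, and the second a leucine gene (TAG) at chrII:6853204-6853285 on the plus strand. The next are an alanine gene (AGC) at chrII:5292332-5292403 on the plus strand and an arginine gene (CCT) at chrIV:143982-144054 on the plus strand. A lysine gene (TTT) at chrV:15465086-15465158 on the plus strand and a proline gene (TGG) at chrV:15465225-15465296 on the minus strand share 1 peak.
F57F5.t1: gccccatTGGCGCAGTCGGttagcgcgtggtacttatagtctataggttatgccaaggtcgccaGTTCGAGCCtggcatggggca
C04A2.t1: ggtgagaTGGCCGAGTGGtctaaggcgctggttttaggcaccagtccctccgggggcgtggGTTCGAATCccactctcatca
ZK622.t1: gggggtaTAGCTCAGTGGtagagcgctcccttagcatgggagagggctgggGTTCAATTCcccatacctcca
F29C4.t1: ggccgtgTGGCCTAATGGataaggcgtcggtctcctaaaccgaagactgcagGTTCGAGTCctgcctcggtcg
T23F1.t1: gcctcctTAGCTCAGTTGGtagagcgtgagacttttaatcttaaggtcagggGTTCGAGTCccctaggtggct
T23F1.t2: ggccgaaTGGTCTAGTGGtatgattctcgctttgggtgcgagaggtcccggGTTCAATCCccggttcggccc

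MED-1-eGFP peaks were found at 76 of the 336 autosomal tRNA genes, which is 22.6% with an exact 95% binomial interval of 18.3 to 27.5. A gene was counted when the deposited summit of a peak in the optimal set, the 460 peaks the authors kept after comparing replicates, lay within 200 bp of it. The same was true of 75 of 276 tRNA genes on X (27.2%) and of 448 of 40532 other autosomal genes (1.11%). Autosomal windows of 472 bp, as wide as a median member with 200 bp on each side, held an optimal summit in 0.192% of cases. The 76 genes shared 72 peaks, or 15.7% of the optimal set, because 4 peaks lay within 200 bp of a pair of genes. The interval covers counting error over genes alone, and genes of 1 sequence family are not independent. All 460 optimal peaks are the strongest of the pooled list, so a member has the same signal in both.

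The pooled and single-replicate lists, which also hold background, reached further. A summit of the pooled list, made from both replicates, lay at 218 members (64.9%), against 14% of windows of that width. Replicate 1 had a summit at 107 members (31.8%), against 1.1% of windows, and replicate 2 at 210 members (62.5%), against 13.9% of windows. The list of replicate 1 is far shorter, with 2401 peaks against 30000 in replicate 2 and in the pooled list. In both replicates 101 members had a summit, 6 had one in replicate 1 alone and 109 in replicate 2 alone. No summit in any list was found at 91 members. Among the 460 strongest peaks of each replicate, 67 members had one in replicate 1, 74 in replicate 2 and 54 in both.

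Signal at members was close to that of the other nuclear peaks and lower at the median than at X tRNA genes, with overlapping ranges. Signal here is the authors' signal value for the peak, a relative number behind which the read depth is unknown. Over the members with an optimal summit it had a median of 61.2 and ran from 39.1 to 163, against a median of 73.8 and a range of 39.4 to 155 for tRNA genes on X. Counted once per peak, the medians were 60.3 on the autosomes and 72.7 on X. The 299 nuclear optimal peaks away from all nuclear tRNA genes had a median of 62.9. The best rank of a member among the 460 was 46, only 5 members ranked 100 or better, and 29 of the 72 peaks were in the 230 strongest of the set.

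**Figure D1:**
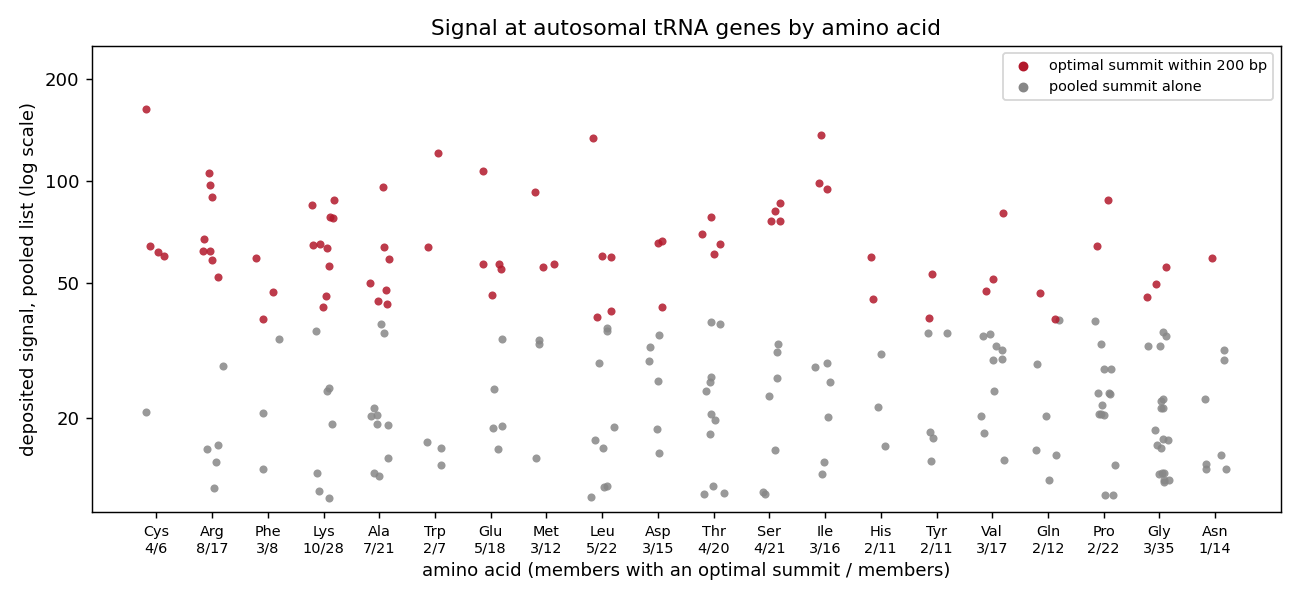
Deposited signal in the pooled list (log scale) at each autosomal tRNA gene with a summit within 200 bp, grouped by amino acid for groups of 5 or more genes, with members that have an optimal summit and all members under each name. Red points have an optimal summit and grey points a pooled summit alone; the highest point is the cysteine gene C37A2.t1 with 163, and every group has both kinds.

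The strongest member was C37A2.t1, a cysteine tRNA gene (GCA) in an intron of cye-1, which encodes cyclin E, at 6781803 to 6781874 on I. It had a signal of 80.9 in replicate 1 and 82.5 in replicate 2, where it ranked 43 and 51, and 163 in the pooled list. It was the highest member in the pooled list, with the summit 18 bp into the gene. Next came the isoleucine gene F57F5.t1, outside any protein-coding gene and 379 bp from the start of gcy-33, a guanylate cyclase gene. Its signal was 51.4 in replicate 1, 87.1 in replicate 2 and 136 in the pooled list, with the summit 5 bp from the gene start. Signals of the replicates are relative values of separate lists, so their sizes are given side by side and not compared. The leucine gene C04A2.t1, in an intron of C04A2.15, had 56.4 in replicate 1, 80.8 in replicate 2 and 134 in the pooled list. sup-5 follows, a tryptophan tRNA gene (CCA) in which mutations suppress amber stop codons, at 8678497 to 8678568 on III in an intron of fli-1. It had 57.7 in replicate 1, 73.8 in replicate 2 and 121 in the pooled list. These 4 genes ranked 104 or better in both replicates.

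Glutamate and arginine genes completed the upper group. C44B7.t1 (Glu, TTC) on II, 464 bp from the start of hrpl-1, had 55.8 in replicate 1 and 51.4 in replicate 2, with 107 in the pooled list. F56F3.t1 (Arg, TCG) on III had 45.7 in replicate 1 and 60.7 in replicate 2, with 106 in the pooled list. Of the further arginine genes among the 20 strongest peaks, F47G6.t1 (TCT) in an intron of spe-15 had 97.0 in the pooled list and F29C4.t1 (CCT) in an intron of the collagen gene col-99 had 89.8. Of the 10 isoleucine genes with the anticodon AAT, the 2 with an optimal summit ranked lower in the shorter list of replicate 1 than in replicate 2. F33G12.t1 had 20.7 in replicate 1, rank 437, and 73.2 in replicate 2, rank 65, with 98.4 in the pooled list. T21B4.t1, in an intron of the collagen gene col-85, had 20.5 in replicate 1, rank 445, and 74.2 in replicate 2, rank 61, with 94.8 in the pooled list. How much each replicate gave to the pooled signal is not measured by these lists.

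Further genes among the 20 strongest peaks included 4 for lysine and 4 for serine. Pooled signal was 95.6 at the alanine gene ZK622.t1, 92.6 at the methionine gene T15B12.t1, 85.9 at the serine gene ZC455.t1 (TGA) and 80.3 at the valine gene C05G6.t1 (CAC). In 3 cases 1 peak served neighbouring genes for different tRNAs or anticodons. The lysine gene T23F1.t1 and the proline gene T23F1.t2, on opposite strands 67 bp apart, shared a peak of 40.9 in replicate 1, 47.2 in replicate 2 and 87.9 in the pooled list. Threonine gene W09G10.t3 and lysine gene W09G10.t2 on II shared one of 78.0, and serine genes F42A10.t1 (AGA) and F42A10.t2 (CGA) on III one of 75.9. Such a peak cannot be given to 1 of the genes by its summit. The remaining peaks of the 20 were at the lysine genes F18C5.t1 (TTT, in an intron of mpz-3) with 85.1 and F56F4.t2 (CTT, in an intron of pept-3) with 77.7, and at the serine gene K11H3.t2 (CGA, in an intron of twk-48) with 81.3.

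For the amino acids not yet named, the strongest members were lower. The pooled signal was 66.5 at the aspartate gene F41A4.t1, 59.5 at the histidine gene W09G10.t1, 59.3 at the asparagine gene Y116F11A.t1 and 59.2 at the phenylalanine gene Y39B6A.t9. It was 55.5 at the glycine gene Y43D4A.t2, 53.2 at the tyrosine gene T22F7.t1 and 46.6 at the glutamine gene F08G5.t2. All 20 standard amino acids thus had at least 1 autosomal gene with an optimal summit. The single selenocysteine tRNA gene, K11H12.t1 on IV, had none, and its pooled summit of 11.7 ranked 28948.

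At the lower edge of the optimal set, members on both sides had nearly the same signal. The last 3 with an optimal summit were C47E8.t1 (Tyr) with 39.2 at rank 454, ZC412.t1 (Phe) with 39.1 at rank 455 and T03E6.t1 (Gln) with 39.1 at rank 456. The strongest 5 without one were B0228.t1 (Gln) with 38.9 at pooled rank 461, B0212.t1 (Pro) with 38.6, F11H8.t1 (Thr) with 38.4, F52C9.t1 (Thr) with 37.8 and Y7A9D.t2 (Ala) with 37.7. The border between 76 members with and 260 without an optimal summit is therefore a cut through a continuous range. Each of these 5 also had a summit in both replicates, from rank 569 to 1301 in replicate 1 and from 416 to 981 in replicate 2. The 142 members with a pooled summit alone had a median of 20.3, and 69 of them ranked below 5000.

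Across the 96 distinct pairs of replicate peaks at members, Spearman's rho of the signals was 0.58 and Pearson's r 0.67. Over the 70 pairs at an optimal peak they were 0.40 and 0.59. These describe peaks that share 2 libraries, and members that share a peak were counted once. A summit in both lists is in part a condition of the optimal set, which the authors made by comparing replicates. It was present for 74 of the 76 members in replicate 1 and for 76 in replicate 2, and the exceptions in replicate 1 were M01E5.t1 (Lys) and ZC412.t1 (Phe). Signal at these members ran from 13.9 to 80.9 with a median of 26.3 in replicate 1, and from 13.3 to 87.1 with a median of 34.4 in replicate 2. Y57G11B.t1 (Gly) ranked 264 of 2401 peaks in replicate 1 and 3978 of 30000 in replicate 2. Y65A5A.t2 (Ala) ranked 1877 of 2401 in replicate 1 and 256 of 30000 in replicate 2. Ranks from lists of such different length are not on 1 scale.

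**Figure D2:**
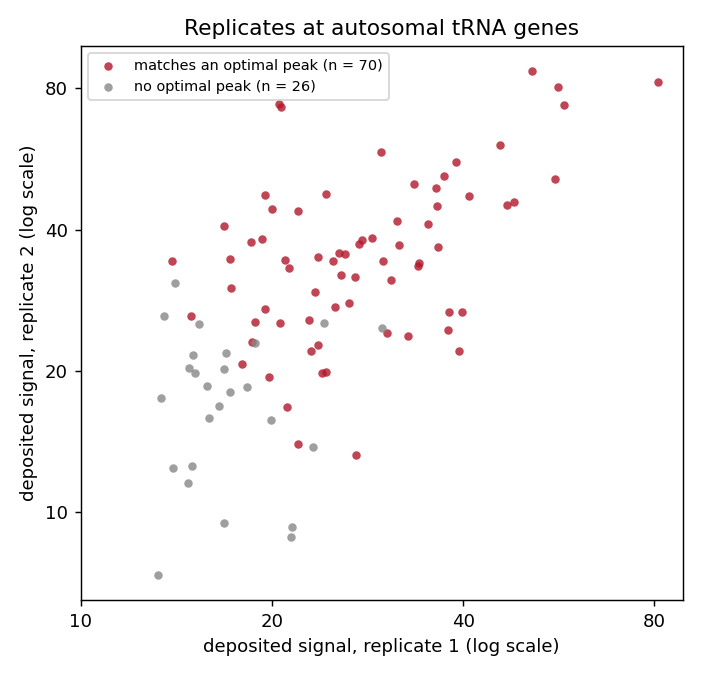
Deposited signal in replicate 1 and in replicate 2 (both log scales) for the 96 distinct pairs of peaks within 200 bp of autosomal tRNA genes. Red points match an optimal peak (70) and grey points do not (26); C37A2.t1 is the point at 80.9 and 82.5.

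Summits were centred near the start of the tRNA gene, and about as many lay inside the gene as beside it. Of the 76 genes, 39 had the summit inside (51.3%), 25 had it upstream and 12 downstream. The 4 peaks that lay at a pair of genes are counted for each gene here. On X, 46 of 75 were inside (61.3%). Measured from the first base of the gene in the direction of transcription, the median position was 17 bp, with quartiles at -10.5 and 62.25 bp, against a median of 15 bp with quartiles at -3.5 and 40.5 bp on X. Between 50 bp upstream and 75 bp downstream of the gene start lay the optimal summit of 60 of the 76 genes (78.9%). For the 142 members with a pooled summit alone this was 77 (54.2%). The positions of those weaker summits had quartiles at -36.5 and 82.75 bp. The A and B boxes and the TFIIIB site fall within that interval, and a summit cannot separate them.

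**Figure D3:**
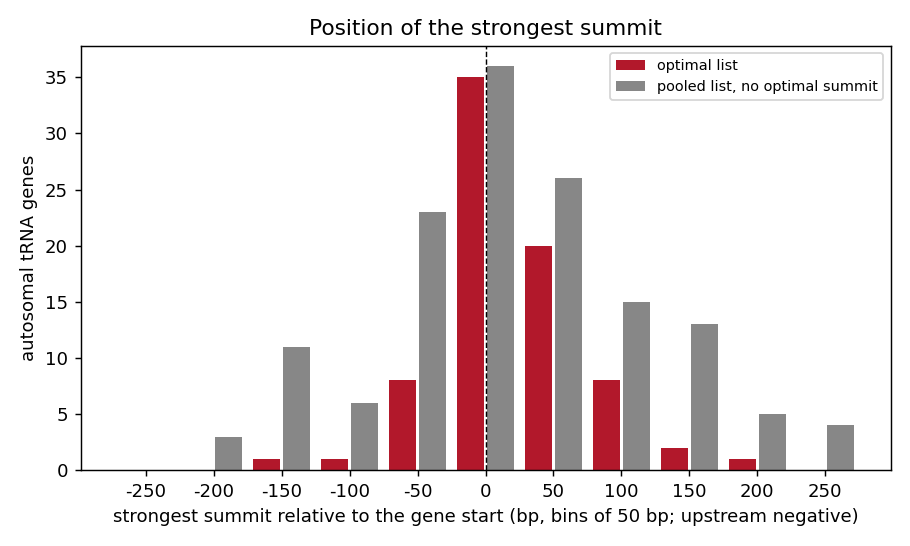
Number of autosomal tRNA genes by the position of their strongest summit relative to the gene start, in bins of 50 bp with upstream negative. Red bars are the 76 genes with an optimal summit and grey bars the 142 with a pooled summit alone; the bin centred on the gene start holds 35 red and 36 grey.

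The share of genes with an optimal summit varied by amino acid, and for some amino acids it differed from that on X, over small numbers of genes. Cysteine had 4 of 6 autosomal genes with one, against 2 of 7 on X, and arginine 8 of 17, against 4 of 27 on X. Phenylalanine had 3 of 8, against 2 of 6 on X. Lysine had 10 of 28, against 3 of 18 on X, and alanine 7 of 21, against 6 of 13 on X. Nearly equal shares were found for threonine (4 of 20, against 3 of 14 on X), serine (4 of 21, against 4 of 18 on X) and valine (3 of 17, against 3 of 14 on X). At the other end asparagine had 1 of 14, against 2 of 6 on X, and glycine 3 of 35, against 5 of 20 on X. Proline had 2 of 22, against 8 of 20 on X. Thus arginine and lysine were above the share of all members on the autosomes and below the share of 27.2% on X, and proline the other way round. The numbers are small, with exact 95% intervals of 23.0 to 72.2% for autosomal arginine genes and 1.12 to 29.2% for autosomal proline genes. On X the intervals were 4.19 to 33.7% for arginine and 19.1 to 63.9% for proline, and they overlap the autosomal ones. No test was made of these differences. The share of 31-base stretches that occur once in the nuclear genome was also taken in the 472 bp windows. Its median was 78.05% for autosomal glycine genes and 79.98% for autosomal proline genes, against 87.19% and 86.65% on X. For asparagine genes it was 86.91% on the autosomes and 87.47% on X. Whether this share goes with the share of genes with an optimal summit was not tested.

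By anticodon, shares ranged widely within arginine and were close to each other within lysine and within glycine, and no difference was tested. All 3 arginine genes with the anticodon TCG and 3 of 4 with TCT had an optimal summit, against 1 of 6 with ACG, 1 of 2 with CCT and none of the single genes with CCG and GCG. Lysine genes had one in 4 of 10 cases with TTT and 6 of 17 with CTT. Glycine genes had 2 of 20 with TCC, 1 of 11 with GCC and 0 of 3 with CCC. For proline 1 of 16 genes with TGG had an optimal summit, although 13 of them had a pooled summit with a median of 21.8. Isoleucine TAT was the reverse, since only F57F5.t1 of 5 genes had a pooled summit at all. Of the other isoleucine TAT genes, 3 are identical copies of 1 sequence on I. Serine genes with GCT (0 of 4) and threonine genes with CGT (0 of 4) also had no optimal summit. Among the 47 anticodons, counts are mostly under 10 genes each.

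Few peaks lay at genes in which an anticodon, enough acceptor pairs or the B box letters were not found. None of the 11 members in which the rules read no anticodon had an optimal summit, and none had a summit in replicate 1. Of these, 4 had a pooled summit, between 12.2 and 16.6. This class follows the rules of the search, and a gene in it may still hold an anticodon. An anticodon, at least 6 paired acceptor bases of 7 and a B box were all found in 299 members, called complete here. Of these, 73 (24.4%) had an optimal summit. Among the 37 in which 1 or more was not found, called incomplete, it was 3 (8.11%). Those 3 include F33G12.t1, whose annotated ends leave fewer than 6 acceptor pairs, and the methionine genes T15B12.t1 and Y22D7AL.t3, in which the B box letters did not match. Y22D7AL.t3 shares its peak with the neighbouring glutamate gene Y22D7AL.t4. The summit lay outside both, 224 bp downstream of the start of Y22D7AL.t3 and 33 bp upstream of that of Y22D7AL.t4, and cannot be given to 1 of them. Of the 37, 28 have a sequence found in no other nuclear tRNA gene, so both features move together. Among complete genes, 62 of 241 with a shared sequence (25.7%) and 11 of 58 with a sequence found once (19.0%) had an optimal summit. Among the incomplete genes it was 2 of 9 with a shared sequence (22.2%) and 1 of 28 with a sequence found once (3.57%). The low share was thus that of the incomplete genes found once. That 1 gene is F33G12.t1, whose span also occurs elsewhere in the nuclear genome. The 9 with a shared sequence are methionine genes (CAT) and proline genes (AGG) with all 7 acceptor pairs, and only their B box letters did not match.

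Examples of genes in which the rules read no anticodon show that the box matches can remain. They are from WBcel235 through RefSeq, on the gene's strand and 5′ to 3′, with capitals for matches to the A box and the B box. F37A4.t1 lies at chrIII:6724135-6724220 on the minus strand, F21A3.t1 at chrV:15517401-15517468 on the plus strand, Y73B6BL.t2 at chrIV:6470291-6470372 on the plus strand and C08E8.t3 at chrV:18372881-18372953 on the minus strand. RefSeq names lysine, methionine, valine and an undetermined amino acid for them. F37A4.t1 and F21A3.t1 had no pooled summit, Y73B6BL.t2 had one of 15.0 and C08E8.t3 one of 12.2. A and B boxes both match in F37A4.t1 and C08E8.t3, the B box alone in F21A3.t1 and neither in Y73B6BL.t2. The letters ctt (lysine) in F37A4.t1 and cat (methionine) in F21A3.t1 stand in a stem and loop that the rules did not accept. C08E8.t3 was not scanned, as no amino acid is named for it. These genes thus do not necessarily lack an anticodon.
F37A4.t1: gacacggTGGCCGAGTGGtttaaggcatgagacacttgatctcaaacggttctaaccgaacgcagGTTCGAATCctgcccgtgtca
F21A3.t1: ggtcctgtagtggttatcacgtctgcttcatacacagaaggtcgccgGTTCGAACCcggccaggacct
Y73B6BL.t2: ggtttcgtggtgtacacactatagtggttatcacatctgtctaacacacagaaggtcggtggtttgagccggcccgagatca
C08E8.t3: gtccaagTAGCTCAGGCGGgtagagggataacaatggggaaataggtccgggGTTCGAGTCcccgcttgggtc

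The promoter boxes were present at similar shares of genes with and without peaks. The B box, written GTTCNANNC and searched on both strands, was in 320 of 336 members (95.2%), in 74 of 76 with an optimal summit (97.4%) and in 246 of 260 without (94.6%). Nuclear autosomal tiles of 72 bases held it in 2.4% of cases. An A box was matched in 307 members, of which 72 had an optimal summit (23.5%), against 4 of the 29 without a match (13.8%). At least 4 T in a row stood within 20 bases downstream of 329 members. The median GC content of the genes was 58.3% both with and without an optimal summit, and that of the 40 bases upstream 47.5% with and 43.75% without. Genes with an intron had an optimal summit in 5 of 20 cases (25%), and those without in 71 of 316 (22.5%).

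Sites that GATA factors are known to read were looked for in the window around each member. The MED site, A or G followed by AGTATAC on either strand, was in the 472 bp window of 3 of 336 members (0.893%), against 1.76% of autosomal windows. The 1 with an optimal summit was F57F5.t1. The core GTATAC, which the MED site contains, was in 9 of 76 windows with an optimal summit (11.8%) and 21 of 260 without (8.08%), against 5.14% of windows. The GATA site TGATAA was in 26 of 76 windows with an optimal summit (34.2%) and 106 of 260 without (40.8%), against 36.4% of windows. A match or its absence is a description of these letters in this window.

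Copies of 1 gene sequence differed in pooled signal. Of the 336 members, 250 share their sequence with another nuclear tRNA gene and 86 do not, and together they hold 137 distinct sequences. An optimal summit was found at 64 of the 250 (25.6%) and at 12 of the 86 (14.0%). For X the corresponding counts were 66 of 219 (30.1%) and 9 of 57 (15.8%). In the 23 groups with at least 5 identical autosomal copies, 47 of 189 members had an optimal summit. Of these groups, 22 had a copy with one and none had it at all copies. The highest pooled signal of a group was between 2.26 and 8.35 times the lowest among copies with a pooled summit, with a median of 4.31. Over all members with a pooled summit the signal ran from 11.6 to 163. Some copies share a peak with a gene of another sequence, such as the highest proline copy, T23F1.t2, with the lysine gene T23F1.t1. Reads from inside identical copies cannot be placed uniquely: the median share of 31-mers that occur once in the nuclear genome was 0% in the gene and 87.6% in the 472 bp window, both for members with and without an optimal summit. How the authors placed such reads is not stated in what was used here, and its part in these signals was not tested.

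**Figure D4:**
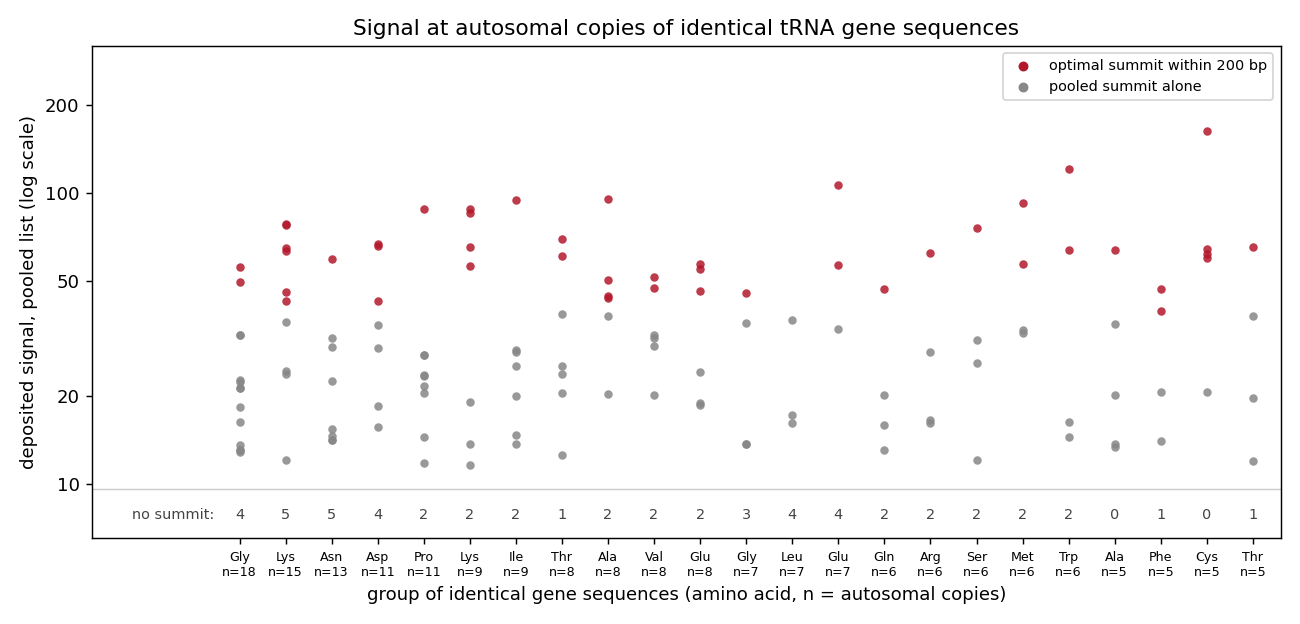
Deposited pooled signal (log scale) for each autosomal copy in the 23 groups of 5 or more identical tRNA gene sequences; numbers along the bottom count copies with no pooled summit. Red points have an optimal summit and grey points a pooled summit alone; the cysteine group runs from 20.8 to 163 and the glycine group of 18 from 12.9 to 55.5.

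The lysine gene with the anticodon TTT shows this range in 9 autosomal copies of identical sequence, the one given above for T23F1.t1. The 40 bases before each copy differ, and are shown for that reason in order of falling pooled signal. They are from WBcel235 through RefSeq, 5′ to 3′ on the strand of the gene. The 4 copies with an optimal summit come first, T23F1.t1 (chrV:15465046-15465085, plus), F18C5.t1 (chrII:6565208-6565247, plus), C09B9.t1 (chrIV:5038880-5038919, plus) and K04C2.t3 (chrIII:6887801-6887840, minus). The 3 with a pooled summit alone are Y70C5A.t1 (chrV:16622132-16622171, minus), ZK994.t2 (chrV:8499637-8499676, minus) and ZK994.t1 (chrV:8495262-8495301, plus). F49C5.t4 (chrII:12541761-12541800, minus) and W07G4.t1 (chrV:13027101-13027140, minus) had no pooled summit.
T23F1.t1: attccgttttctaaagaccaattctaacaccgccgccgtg
F18C5.t1: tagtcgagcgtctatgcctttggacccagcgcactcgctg
C09B9.t1: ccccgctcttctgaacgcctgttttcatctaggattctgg
K04C2.t3: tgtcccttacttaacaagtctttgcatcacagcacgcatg
Y70C5A.t1: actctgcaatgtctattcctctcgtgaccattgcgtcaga
ZK994.t2: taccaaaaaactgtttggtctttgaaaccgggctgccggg
ZK994.t1: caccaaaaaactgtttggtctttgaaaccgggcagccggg
F49C5.t4: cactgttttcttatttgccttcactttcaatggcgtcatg
W07G4.t1: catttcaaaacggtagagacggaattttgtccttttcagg

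Values in each replicate are given for the 4 strong lysine copies, those with an optimal summit, and for the other 5. The optimal set was made by comparing these replicates, so a gap between the 4 and the 5 is in part a condition of that choice. T23F1.t1 had 40.9 in replicate 1 and 47.2 in replicate 2, F18C5.t1 36.2 and 49.2, C09B9.t1 28.7 and 38.4, and K04C2.t3 21.0 and 34.5 in the same order. None of the other 5 copies had a summit in replicate 1, and in replicate 2 the highest of them, W07G4.t1, had 12.2. In the pooled list the 4 strong copies had 87.9, 85.1, 65.0 and 56.1, and the weaker 3 had 19.1, 13.7 and 11.6. The identity of the upstream 40 bases between copies, compared base by base over 36 pairs, was 10 to 95% with a median of 35%. The pair above 50% was ZK994.t2 and ZK994.t1, which both lie in pxn-1 and both had low signals. Whether upstream bases and signal go together was not tested.

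The largest group of identical sequences, glycine TCC, had 18 autosomal copies of 29 in the nuclear genome and mostly low signals. Y43D4A.t2 on IV had 26.5 in replicate 1, 27.9 in replicate 2 and 55.5 in the pooled list. Y57G11B.t1 on IV had 27.1 in replicate 1, 13.3 in replicate 2 and 49.6 in the pooled list. These 2 copies had an optimal summit, and 12 others had a pooled summit, led by K04C2.t2 and K04C2.t1, which share a peak of 32.6. The 10 copies on I, which include C12C8.t1 to C12C8.t6, had no optimal summit and at most 22.4 in the pooled list, at T04D3.t3. Cysteine was the contrast, with 5 identical copies of which C37A2.t1, F32B4.t1, F53F8.t1 and ZC412.t2 had an optimal summit, with 163, 64.3, 61.6 and 59.8 in the pooled list. The fifth, K04A8.t3, had 20.8 and no summit in replicate 1.

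The share with an optimal summit was 24.1% in chromosome centres and 21.1% on arms, and this order depended on the peaks used. The centre, taken as the middle 25 to 75% of the chromosome length, held 170 members and 41 of them had an optimal summit (24.1%, exact 95% interval 17.9 to 31.3). On the arms it was 35 of 166 (21.1%, 15.1 to 28.1). With the 230 strongest optimal peaks the shares were 12.9% in centres and 6.02% on arms, and with the 460 strongest peaks of replicate 2 alone they turned, to 21.2% in centres and 22.9% on arms. The median signal of these was 64.5 in centres and 59.2 on arms, and the 7 strongest peaks at members were all in centres. By chromosome the counts were 15 of 66 on I, 13 of 57 on II, 15 of 64 on III, 17 of 71 on IV and 16 of 78 on V, or 20.5 to 23.9%. Centres exceeded arms on II, III and V, arms exceeded centres on I with 9 of 29 against 6 of 37, and the shares were nearly the same on IV. The median signal with an optimal summit was 52.0 on I and 78.0 on II, the lowest and the highest.

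The share was nearly the same inside and outside protein-coding genes. An optimal summit was found at 44 of 194 members within a protein-coding gene (22.7%) and at 32 of 142 outside (22.5%), with a median signal of 61.2 within and 60.9 outside. It was found at 26 of 111 members in an intron on the same strand as the host (23.4%), at 17 of 77 on the opposite strand (22.1%) and at 1 of 6 that overlap an exon. The share was lower further from the nearest protein-coding start, a difference that was not tested. It was 29 of 98 up to 500 bp (29.6%), 30 of 125 beyond that up to 2000 bp (24.0%) and 17 of 113 beyond 2000 bp (15.0%). Their median signals, 56.9, 60.3 and 63.2, ran the other way. Since a peak near a gene start may also be a peak of that gene, the count over the 238 members more than 500 bp from any such start is 47, and the part of promoters in the other 29 was not tested.

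The share was lower among neighbouring tRNA genes than among lone ones, a difference that was not tested. With no other member within 1 kb, 59 of 235 genes had an optimal summit (25.1%), against 17 of the 101 genes in the 46 clusters (16.8%), and 8 of those 17 shared a peak with their neighbour. With small RNA genes of any kind counted, the shares were 18 of 108 up to 1 kb (16.7%), 12 of 55 from 1 to 5 kb (21.8%) and 46 of 173 further away (26.6%). Only 11 of the 46 clusters had a member with an optimal summit. The largest clusters have 4 genes and went different ways. On IV, Y65A5A.t1, Y65A5A.t2 and Y65A5A.t4 (Ala, Ala and His) each had a peak of its own with 43.4, 44.3 and 44.7, while Y65A5A.t3 (Val) between them had 20.3 and no optimal summit. The cluster of 4 glycine genes of C12C8 on I had no optimal summit.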

How the data were processed

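Peak lists from 2 biological replicates of MED-1-eGFP anti-GFP ChIP-seq were used on ce11, which is the assembly WBcel235. Per the deposited file lists, the authors made a list for each replicate and a pooled list against a control, with background kept, and an optimal set from them by the irreproducible discovery rate (IDR). Which aligner, peak caller and IDR cutoff were applied is not given in the sources used here. Signal, in the lists the authors deposited, is the relative signal value of the peak format, ranked within a list and set side by side between replicates without comparing their sizes. The deposited q-value column falls below 0 and was used as a score alone, with a minimum of 2 as an alternative. Read depth is unknown, so no counting error was attached to a signal. Lists on ce10 were not used.

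The strongest summit within 200 bp of each gene was taken with Python 3.11.15 (numpy 2.4.6, pandas 2.3.3, scipy 1.17.1), tested on simulated summits. Alternatives changed the distance, the peaks kept, the replicates and the genes counted. Genes came from Ensembl release 115, and amino acids and sequence from RefSeq. Anticodons were read from a stem of 5 pairs, of which 1 could be missing, and a loop of 7 bases, within a fixed stretch of the gene. T, or C for methionine, had to stand before the anticodon and A or G after it. Only an anticodon for the amino acid that RefSeq names was accepted, so genes with none named were not scanned. The members and lists were chosen with earlier results of these data known. No test between groups was made, since there is 1 group. Genes named are members of the 20 strongest peaks and of the last 3, the strongest of each amino acid, the 5 strongest without an optimal summit and the largest identical group. The lysine and cysteine copies, the clusters, genes with no anticodon read and genes given with ranks of both replicates were named after their values were seen.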

Additional observations from a re-analysis of the deposited data

How the results depend on the processing

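The 14 results were recomputed under 80 alternatives, where 46 values stayed within a tolerance and 34 moved. Only rho could change sign, since counts, shares and signals are never negative, and it did not. The tolerance was 1.5 times for a count, the exact 95% interval of the main value for a share, 4.08 for the median signal (SD of the replicate medians) and 0.1 for rho, so a share from few genes may move further than a count. Requiring the summit inside the gene left 39 members and 39 peaks, 55 members in replicate 1, 74 in replicate 2 and 85 in the pooled list, and shares of 12.9% in centres, 10.2% on arms, 8.14% for sequences found once, 12.8% for shared ones, 12.4% within and 10.6% outside protein-coding genes. The 230 strongest optimal peaks left 32 members, 29 peaks and 17 summits inside a gene, a median signal of 83.2, and shares of 12.9% in centres, 6.02% on arms, 5.81% for sequences found once, 10.8% for shared ones, 9.79% within and 9.15% outside protein-coding genes. Peaks with at least 2 in the q-value column left 21 members, 19 peaks and 13 summits inside, with a median of 92.6. Without members near a protein-coding start 47 members and 47 peaks remained. The 460 strongest peaks gave 67 members in replicate 1, 74 in replicate 2 and 76 in the pooled list, and the 2000 strongest 120 in replicate 2 and 122 in the pooled list. The replicate rho over pairs that match an optimal peak was 0.40. These alternatives keep fewer peaks or genes by construction. With the 460 strongest peaks of 1 replicate in place of the optimal set, members ran from 67 to 74, peaks from 62 to 69, summits inside from 31 to 37 and the median signal, on the scale of 1 replicate, from 27.7 to 35.3. The shares then ran from 21.2 to 22.4% in centres, 17.5 to 22.9% on arms, 11.6 to 14.0% for sequences found once, 22 to 25.6% for shared ones and 18.0 to 21.6% within protein-coding genes, and were 22.5% outside in both. The order of centres and arms turned without replicate 1. No paired analysis was possible because there is 1 group.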

Other observations

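The lists did not always hold a summit at the same members. Of the 118 members with no pooled summit within 200 bp, 27 had one in replicate 2, and 3 of these, W10G11.t1, W10G11.t2 and ZK783.t1, also had one in replicate 1. The lysine gene C17D12.t2 ranked 273 in replicate 2 with 32.9, had no summit in replicate 1 and ranked 543 in the pooled list.

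F33G12.t1, the isoleucine gene with the seventh-highest peak, is annotated with a sequence that no other tRNA gene has, yet its span also occurs elsewhere in the nuclear genome. It is the 1 member of which this is true. Among tyrosine genes, which all carry an intron of 11 bases, 2 of 11 had an optimal summit, against 3 of 8 tyrosine genes on X.

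The 4 leucine genes with the anticodon CAA all carry an intron. In the pooled list C14B9.t2 had 59.9, ZK822.t1 had 29.1 and B0285.t1 had 11.7, and F22B7.t1 had no summit in any list. The values of C14B9.t2 were 30.8 in replicate 1 and 31.3 in replicate 2, and those of ZK822.t1 were 16.8 in replicate 1 and 9.47 in replicate 2.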
